A study of Sus scrofa with 4 samples.

Results

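The 9 genes described here are the mitochondrially encoded ND and ATP genes of the pig, ND1, ND2, ND3, ND4, ND4L, ND5, ND6, ATP6 and ATP8, taken by symbol from 26466 gene symbols. All 9 were found once in each file and all passed the filter on low counts, which kept 18168 genes. RNA was sequenced from pig kidneys in 4 libraries, 1 for each combination of 2 donor genotypes and 2 states, in a study meant to choose the genotype that better eases immune rejection. Pigs of the first genotype, labelled GalT-/-;hCD39;hCD55 and called CD39/CD55 here, lacked the galactosyltransferase that makes the alpha-Gal antigen and carried the human genes CD39 and CD55. Pigs of the second, labelled GalT-/-;hCD39;hCD46;hCD55;TBM and called CD39/CD46/CD55/TBM, had the same loss and also carried human CD46 and thrombomodulin. All 4 libraries thus share the loss of the galactosyltransferase and the CD39 and CD55 transgenes, and there is no unmodified pig. Kidneys were untransplanted, or had been transplanted into non-human primates, and the graft was taken after 4 weeks in CD39/CD55 and after 6 weeks for CD39/CD46/CD55/TBM. Within the transplanted pair, genotype, weeks and recipient cannot be told apart. The sources used here do not give the age of the pigs, the promoters of the transgenes, the number of animals behind a library or whether a pair of kidneys came from 1 animal.

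Mitochondrial DNA is a small circle present in many copies per cell, and it encodes 13 proteins of the respiratory chain. The ND genes encode the membrane core of complex I, which passes electrons from NADH to ubiquinone and pumps protons. ATP6 and ATP8 encode membrane parts of the ATP synthase (complex V), which uses the proton gradient to make ATP. The other 4 proteins are COX1, COX2 and COX3 of complex IV and CYTB of complex III. Both strands of the circle are read as long transcripts that are then processed into single RNAs, and of the proteins only ND6 is encoded on the strand opposite to the others. The kidney tubule, the proximal tubule above all, is rich in mitochondria because reabsorption is driven by ATP.

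On the mitochondrial chromosome MT of Sscrofa11.1, in the RefSeq table of that build, the members lie in the order ND1 (3922 to 4876), ND2 (5087 to 6128), ATP8 (8959 to 9162), ATP6 (9120 to 9800), ND3 (10653 to 10998), ND4L (11069 to 11365), ND4 (11359 to 12736), ND5 (12935 to 14755) and ND6 (14739 to 15266). ATP8 overlaps ATP6 by 43 bases, ND4L overlaps ND4 by 7 and ND5 overlaps ND6 by 17. The sources used here do not say how reads in an overlap were assigned, whether counting used the strand, or how reads matching nuclear copies of mitochondrial DNA or recipient RNA were treated. Counts of overlapping neighbours, above all the small counts of ATP8 and ND4L, are uncertain for that reason.

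Total counts ranged from 10346863 to 14092905 per library. With 1 library per group, no single pair has a replicate check, and the 95% intervals given cover counting error alone. Counts were scaled by the TMM method of edgeR, which sets libraries on a common scale from the bulk of genes, and are given in scaled CPM, a gene's count relative to the scaled total of its library. A gene is called higher or lower in a pair of libraries when the ratio is at least 2-fold and the interval leaves out 1. Among kidney markers, all 12 proximal tubule genes were detected in both untransplanted libraries. The collecting duct channel gene AQP3 was at 0 in 3 of the 4 libraries. RN18S, RN5-8S and 3 unplaced loci of very high count were summed. Whether the 3 loci are ribosomal RNA was not checked by sequence. Together they took, with RN18S and RN5-8S, 10.8% and 22.4% of counts in the untransplanted and transplanted kidneys of CD39/CD55. For CD39/CD46/CD55/TBM the shares were 12.6% and 18.9%. RN18S alone took 2.61% and 5.04%, and 3.09% and 4.54%.

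The 9 genes together took 5.92% of counts in the untransplanted and 2.53% in the transplanted kidney of CD39/CD55, against 9.78% and 8.90% for CD39/CD46/CD55/TBM. No exact interval (Clopper-Pearson) was wider than 0.0203 percentage points on a side. The transplanted CD39/CD55 library was therefore the lowest and both CD39/CD46/CD55/TBM libraries were above both CD39/CD55 libraries. On scaled counts, the sum was 1.68-fold higher in the untransplanted kidney of CD39/CD46/CD55/TBM than in the untransplanted kidney of CD39/CD55, and 3.76-fold higher between the transplanted kidneys. After transplantation it was 2.57-fold lower in CD39/CD55 and 1.15-fold lower for CD39/CD46/CD55/TBM. The 7 ND genes and the 2 ATP genes did this to different degrees, 2.93-fold and 2.16-fold lower after transplantation in CD39/CD55 and 1.08-fold and 1.35-fold lower for CD39/CD46/CD55/TBM. In bulk tissue, fewer cells of a type, fewer mitochondria per cell and less RNA per mitochondrion cannot be told apart.

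**Figure D1:**
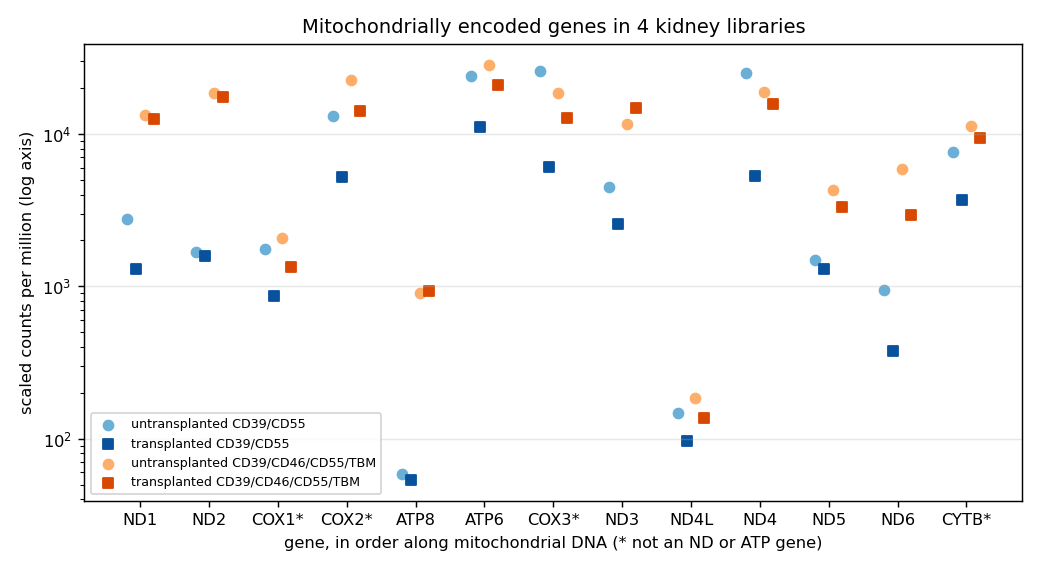
Scaled CPM (log axis) of the 13 mitochondrially encoded protein genes in each of the 4 libraries, 1 point per library, in order along mitochondrial DNA; genes with an asterisk are not ND or ATP genes. ATP8 sits near 58.2 and 53.5 in CD39/CD55 and near 904 and 930 for CD39/CD46/CD55/TBM, while ND4L stays between 97.0 and 184 in all 4.

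The genotypes were compared first in untransplanted kidneys. ND1, a core subunit near the quinone site of complex I, had 37809 counts in CD39/CD55 and 169406 for CD39/CD46/CD55/TBM, a log2 ratio of 2.28 (95% counting interval 2.26 to 2.30). ND2, one of the proton-pumping subunits of complex I, had 23133 and 235440 counts, an 11.0-fold difference (log2 ratio 3.47, interval 3.45 to 3.48). The members thus differed by far more than the sum: the ratio of ND2 was several times that of all 9 together.

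ATP8, the short subunit beside ATP6 in complex V, had 800 and 11451 counts in the untransplanted CD39/CD55 and CD39/CD46/CD55/TBM kidneys, a log2 ratio of 3.96 (3.85 to 4.06) and the largest of the 9. ATP6, which forms the proton channel, had 328102 and 359771 counts, a log2 ratio of 0.25. These genes overlap and share a transcript, and their log2 ratios differed by more than 3. Within a library, ATP8 had 0.244 counts per 100 of ATP6 in the untransplanted and 0.485 in the transplanted kidney of CD39/CD55, and 3.18 and 4.47 for CD39/CD46/CD55/TBM. This ratio needs no scaling of the libraries, and both CD39/CD46/CD55/TBM values were above both CD39/CD55 values.

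ND6, the member on the opposite strand, had 13026 counts in the untransplanted kidney of CD39/CD55 and 74886 in the untransplanted kidney of CD39/CD46/CD55/TBM (log2 ratio 2.64). ND5, a proton-pumping subunit and its overlapping neighbour, had 20540 and 54329 (1.52), and ND3, a small membrane subunit, had 61514 and 146339 (1.37). ND4, another pumping subunit, went the other way, with 347192 and 239600 counts (-0.42), and ND4L, the small subunit encoded beside it, had 2017 and 2325 (0.32). Of the 9 members, 6 were called higher in the untransplanted kidney of CD39/CD46/CD55/TBM and none lower, against 8.15% of all genes called higher and 7.88% lower. The members not called were ND4, ND4L and ATP6. None of the 4 other mitochondrially encoded genes was called, with log2 ratios from -0.48 for COX3 to 0.79 for COX2.

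Between the transplanted kidneys the median log2 ratio of the 9 members was 2.53, against 1.52 between the untransplanted kidneys. The ratio of ND5 was smaller than there, and that of ND2 about the same. ND1 had 16139 counts in CD39/CD55 and 130119 for CD39/CD46/CD55/TBM (log2 ratio 3.27, 3.25 to 3.29), and ND2 had 19469 and 182090 (3.48, 3.46 to 3.50). ATP8 had 663 and 9629 counts (4.12, 4.01 to 4.23), again the largest ratio. ND6 had 4662 and 30291 (2.96). All 9 log2 ratios were above 0, and 7 members were called higher and none lower, against 11.0% of all genes in each direction.

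ND3 had 31925 and 153654 counts in the transplanted CD39/CD55 and CD39/CD46/CD55/TBM kidneys (2.53), ND4 had 65964 and 163724 (1.57), and ND5 had 16122 and 34113 (1.34). ATP6 with 136599 and 215520 counts (0.92) and ND4L with 1201 and 1413 (0.49) were not called. Of the other mitochondrial genes, COX2, COX3 and CYTB were called higher (1.43, 1.05 and 1.34) and COX1 was not (0.63). COX3 was not called when libraries were scaled by total count (0.95).

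**Figure D2:**
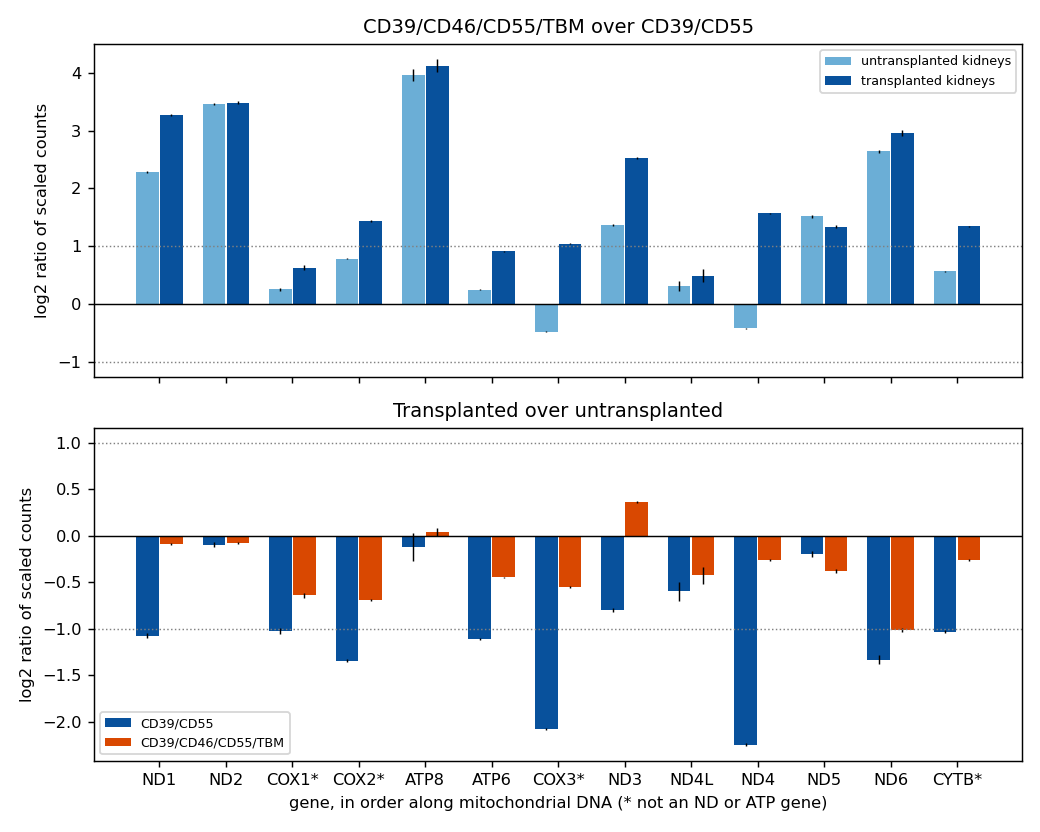
Log2 ratios of scaled counts for the 13 genes, with CD39/CD46/CD55/TBM over CD39/CD55 in each state above and transplanted over untransplanted in each genotype below; bars are 1 library over 1 library, black lines are 95% counting intervals and dotted lines mark 2-fold. In the upper panel ATP8 reaches 3.96 and 4.12 and ND2 3.47 and 3.48, and in the lower panel ND4 in CD39/CD55 reaches -2.25.

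The genotypes were then tested over both states, 2 libraries against 2, with edgeR's quasi-likelihood test across all genes. No member passed at an adjusted p of 0.05, and neither did any of the 18168 genes, of which 190 were higher and 259 lower at an unadjusted p under 0.05. The other tools called 17 genes (DESeq2's Wald test) and 0 (limma voom). At an unadjusted p under 0.05, 6 of the 9 members were higher for CD39/CD46/CD55/TBM, against 1.05% of all genes. These were ATP8, ND2, ND1, ND6, ND3 and ND5, and ATP8 had the smallest p of all genes. Its log2 fold change was 4.04 (SE 0.53, edgeR adjusted p = 0.982), higher in both libraries of the genotype. ND2, at 3.47 (SE 0.55, edgeR adjusted p = 0.982), ranked 5 by p.

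Each of these 6 members was higher in both CD39/CD46/CD55/TBM libraries than in both CD39/CD55 libraries, as were 15.3% of all genes. ND4, ND4L and ATP6 overlapped between the genotypes. The libraries on each side differ in state, so this test counts the effect of transplantation as spread. With state as a block in the edgeR fit, ATP8 (adjusted p = 1.27e-06), ND2 (0.00101), ND6 (0.00199) and ND1 (0.00828) passed, and 0.732% of all genes were called higher. The block leaves fewer residual degrees of freedom than the fit without it, so these p-values rest on little spread of each gene. The same 4 members were among the 12 genes that DESeq2's Wald test called higher (0.0661% of genes, with 0.0275% lower), with adjusted p from 4.33e-13 for ATP8 to 0.0405 for ND6. They also passed in edgeR without the untransplanted CD39/CD55 library, where 0.0782% of genes were higher, with adjusted p from 0.00821 to 0.0495, and no member passed when any of the other libraries was left out. Over all alternatives the adjusted p of ATP8 ranged from 4.33e-13 to 0.982 and that of ND2 from 1.1e-09 to 1.

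**Figure D3:**
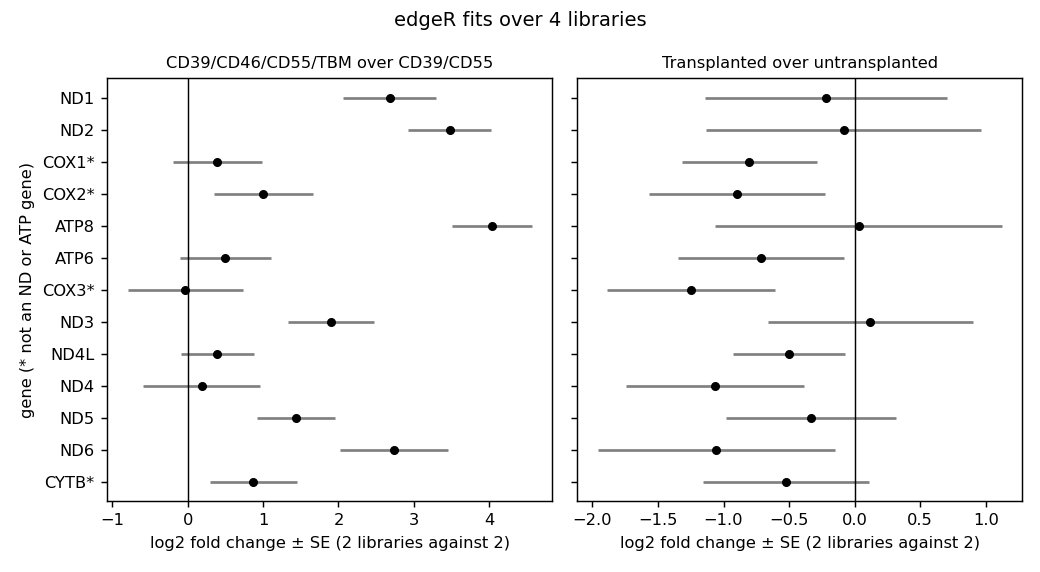
Log2 fold changes of the 13 genes with their SE from edgeR fits over 4 libraries, 2 against 2, for genotype on the left and state on the right; genes with an asterisk are not ND or ATP genes. For genotype the points of ATP8 (4.04), ND2 (3.47), ND6 (2.74) and ND1 (2.68) lie farthest from 0, and none of the 13 passed at an adjusted p of 0.05 in either fit.

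Transplanted and untransplanted kidneys were compared within each genotype. In CD39/CD55, ND4 had 347192 counts in the untransplanted and 65964 in the transplanted kidney, a log2 ratio of -2.25 (-2.26 to -2.23), or 4.74-fold lower. ND6 had 13026 and 4662 (-1.33), ATP6 had 328102 and 136599 (-1.11) and ND1 had 37809 and 16139 (-1.08), all 3 called lower. ND3 (-0.80) and ND4L (-0.60) were lower by less than 2-fold.

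ND5 (-0.20), ATP8 (-0.12, interval -0.27 to 0.03) and ND2 (-0.10) were within 1.15-fold of the untransplanted kidney of CD39/CD55. Scaling by total count moves the median of all genes in this pair by 0.13 on the log2 scale and turns the direction of ATP8 (0.01) and ND2 (0.04). The same scaling takes ND1 (-0.94) and ATP6 (-0.98) out of the calls. Of the 9 members, 4 were called lower and none higher, against 13.7% and 13.2% of all genes. The other 4 mitochondrial genes were also called lower, COX3 with a log2 ratio of -2.08 and the rest from -1.34 to -1.02. Total count scaling takes COX1 (-0.89) and CYTB (-0.90) out of these calls too.

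In CD39/CD46/CD55/TBM the members differed less between the states. ND6 had 74886 and 30291 counts, a log2 ratio of -1.02 (-1.03 to -0.996), and was the only member called, against 16.3% of all genes called lower and 15.9% higher. With total count scaling it was -0.95 and not called. ATP6 had 359771 and 215520 counts (-0.45), ND4L 2325 and 1413 (-0.43), ND5 54329 and 34113 (-0.38) and ND4 239600 and 163724 (-0.26). ND1 (-0.09), ND2 (-0.08) and ATP8 (0.04, or -0.02 with no filter on low counts) were within 1.07-fold of the untransplanted kidney. ND3 was higher, with 146339 and 153654 counts (0.36).

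The difference between the 2 transplantation ratios, CD39/CD46/CD55/TBM over CD39/CD55, was called for ND4 (log2 1.99, interval 1.97 to 2.00) and ND3 (1.16, 1.13 to 1.18), against 10.3% of all genes higher. ND1 (0.99) and ATP6 (0.67) came next and were under 2-fold. ND2, ATP8 and ND5 had differences of 0.02, 0.16 and -0.18. The members with the largest genotype ratios, ATP8 and ND2, were thus among those whose transplantation ratios differed least between the genotypes.

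In edgeR's quasi-likelihood test of state over both genotypes, no member passed, with adjusted p from 0.412 for ND4 to 0.992 for ATP8. Over all genes, 225 rose and 493 fell (1.24% and 2.71%), and no member was among the 8.99% that were higher or the 10.7% that were lower at an unadjusted p under 0.05. DESeq2's Wald test (2.27% higher, 4.73% lower) and limma voom called no member either. ND4, ND4L and ATP6 were lower in both transplanted libraries than in both untransplanted ones, as were 25.5% of genes, and no member was higher in both, as 26.3% were. Single libraries decided what was called: without the transplanted CD39/CD46/CD55/TBM library ATP8, ND1 and ND6 were called lower, with 2.20% of genes (edgeR adjusted p 0.0165, 0.0365 and 0.00975), and without the untransplanted one ATP8 was called higher, with 1.72% of genes (0.0331). Each of these fits compares genotypes as well as states, since it leaves 1 library of CD39/CD46/CD55/TBM on 1 side only.

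Since these ratios depend on the scaling of libraries, the make-up of the mitochondrial counts was described too, as the share of each gene in the sum of all 13. ND4 took 23.2% and 13.5% in the untransplanted and transplanted kidneys of CD39/CD55 and 12.1% and 12.5% for CD39/CD46/CD55/TBM. ND2 took 1.54% and 3.98% in CD39/CD55 and 11.9% and 13.9% for CD39/CD46/CD55/TBM. ND1 took 2.52% and 3.30%, and 8.54% and 9.95%. Among the 13 genes, the ranges of the genotypes overlapped only for ND5, COX2 and CYTB. CD39/CD46/CD55/TBM was the higher for ND1, ND2, ND3, ND6 and ATP8, and CD39/CD55 for ND4, ND4L, ATP6, COX1 and COX3. Shares of a common sum are tied to each other, so these genes do not differ independently.

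ATP6 was the largest of the 9 in 3 libraries, with 27.9% in the transplanted kidney of CD39/CD55 and 18.1% and 16.5% for CD39/CD46/CD55/TBM, and stood behind ND4 at 21.9% in the untransplanted kidney of CD39/CD55. ND3 took 4.11% and 6.53% in CD39/CD55 and 7.37% and 11.8% for CD39/CD46/CD55/TBM, higher in the transplanted kidney of both. ND6 took 0.869% and 0.953%, and 3.77% and 2.32%. For every 100 counts of ND5 there were 63.4 and 28.9 of ND6 in CD39/CD55 and 138 and 88.8 for CD39/CD46/CD55/TBM, lower in the transplanted kidney of both.

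ND5 took 1.37% and 3.30% in CD39/CD55 and 2.74% and 2.61% for CD39/CD46/CD55/TBM. ATP8 took 0.0534% and 0.136% in CD39/CD55 and 0.577% and 0.736% for CD39/CD46/CD55/TBM. ND4L, at most 0.246% in any library, took its highest share in the transplanted kidney of CD39/CD55. For every 100 counts of ND4 there were 0.581 and 1.82 of ND4L in CD39/CD55 and 0.970 and 0.863 for CD39/CD46/CD55/TBM.

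**Figure D4:**
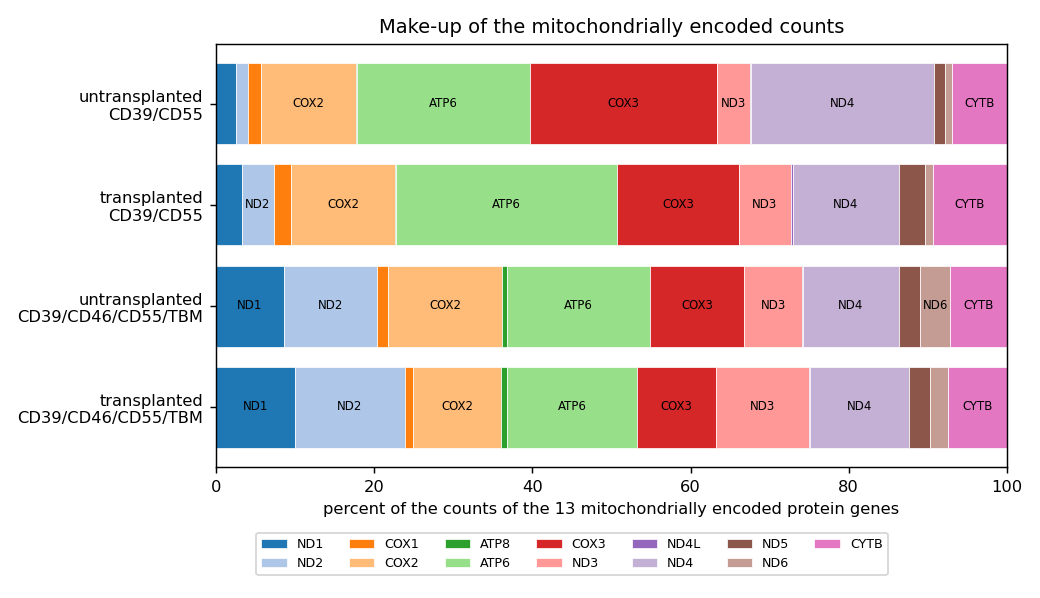
Share of each of the 13 mitochondrially encoded protein genes in their summed counts (percent, stacked to 100), 1 bar per library. ND1 and ND2 widen from 2.52% and 1.54% in the untransplanted kidney of CD39/CD55 to 8.54% and 11.9% in the untransplanted kidney of CD39/CD46/CD55/TBM, and ND4 and COX3 narrow.

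Over the 13 genes, libraries of 1 genotype were more alike than libraries of 1 state. The SD of the log2 count ratio over the 13 genes was 0.67 between the 2 states of CD39/CD55 and 0.36 between those of CD39/CD46/CD55/TBM, and 1.43 and 1.19 between the genotypes of untransplanted and transplanted kidneys. Pearson's correlation of log2 scaled CPM over the 13 genes was 0.98 and 0.99 between the states of 1 genotype, and 0.86 in both pairs of genotypes in 1 state. Over all 18168 genes it was 0.92 and 0.89 between the states, and 0.96 and 0.94 between the genotypes, the opposite order. These values describe 4 libraries, and genes of 1 library share its preparation and depth.

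Levels of different genes were compared per kilobase of gene length, a scale that holds only if reads came from along the whole transcript. Per kilobase, ATP6 was the highest member in 3 libraries, at 35069 scaled CPM in the untransplanted and 16198 in the transplanted kidney of CD39/CD55 and 41723 in the untransplanted kidney of CD39/CD46/CD55/TBM. ND3 was the highest in the transplanted kidney of CD39/CD46/CD55/TBM, at 42887 against 30563 for ATP6. The lowest was ATP8 in CD39/CD55 (285 and 262) and ND4L for CD39/CD46/CD55/TBM (618 and 459). The highest member was 61.7-fold to 123-fold above the lowest. Only ND5 and ND6 of the transplanted kidney of CD39/CD55, at 715 and 713 per kilobase, were neighbours in this order with overlapping counting intervals. Over the 13 genes, Spearman's rank correlation of the genotype ratio with gene length was -0.26 in untransplanted and -0.20 in transplanted kidneys, and with the order along the DNA -0.19 and -0.24.

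Nuclear genes for the same complexes were described from lists of current symbols, of which 1 ATP synthase gene was not matched. Between the genotypes the nuclear complex I subunits did not show the higher values of the ND genes. Their median log2 ratio was -0.38 in untransplanted and -0.35 in transplanted kidneys, against medians of 1.52 and 2.53 for the 9 members and 0.00 for all genes in both pairs. Of 37 subunits, 1 was called higher (NDUFS4) and 7 lower in untransplanted kidneys, against 8.15% and 7.88% of all genes, and none in transplanted kidneys, against 11.0% each way. The 17 measured nuclear ATP synthase genes had medians of -0.55 and -0.42, with 3 called lower and none higher in untransplanted kidneys and none in either direction in transplanted kidneys. ATP5B, the catalytic beta subunit, named after its values were seen, had 9385 and 3076 counts in the untransplanted CD39/CD55 and CD39/CD46/CD55/TBM kidneys.

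After transplantation both nuclear lists were low in both genotypes. Complex I subunits had medians of -0.98 in CD39/CD55 and -0.85 for CD39/CD46/CD55/TBM, with 16 and 12 of 37 called lower and none higher, against 13.7% and 16.3% of all genes lower and 13.2% and 15.9% higher. ATP synthase genes had medians of -1.14 and -0.75, with 11 and 7 of 17 called lower, against the same 13.7% and 16.3%. The medians of the 9 mitochondrial members in these pairs were -0.80 and -0.26, and those of all genes 0.02 and 0.01. In edgeR's quasi-likelihood test of state, no gene of either nuclear list passed at an adjusted p of 0.05, and 17 of 37 and 9 of 17 were lower at an unadjusted p under 0.05, against 10.7% of all genes. NDUFB11, an accessory subunit of complex I, had 3658 and 862 counts in CD39/CD55, against 1224 and 508 for CD39/CD46/CD55/TBM. ATP5F1, the stalk subunit b of the ATP synthase, had 3857 and 1023, and 2359 and 871. NDUFB9 was at the other end, with 2613 and 2638, and 1970 and 1931 counts.

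**Figure D5:**
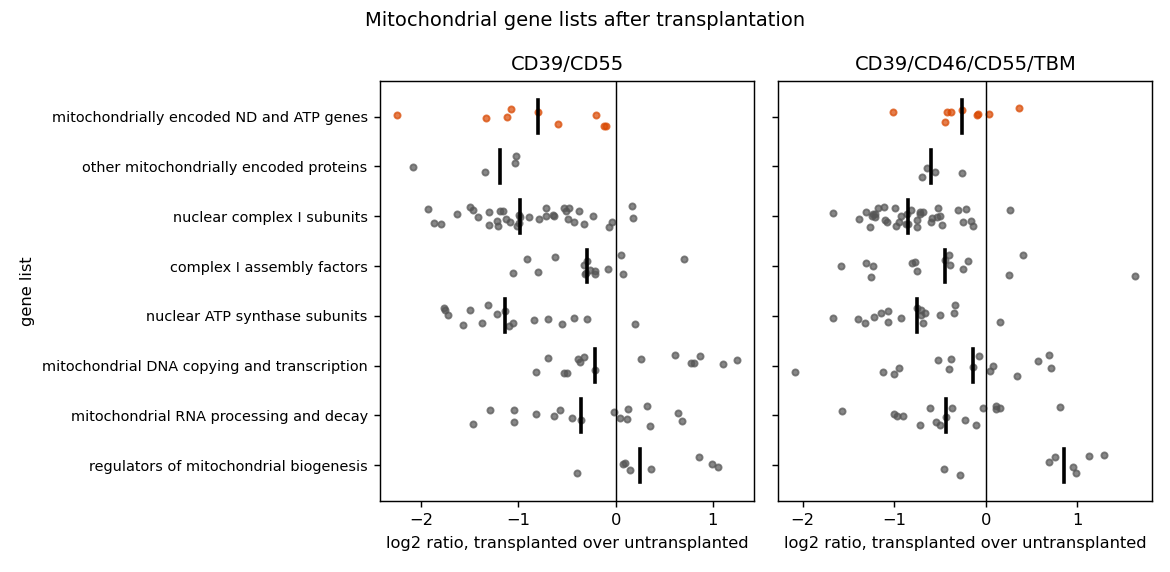
Log2 ratios of transplanted over untransplanted kidney for each gene of 8 lists in CD39/CD55 (left) and CD39/CD46/CD55/TBM (right); points are genes, black bars are list medians and the ND and ATP genes are in orange. The nuclear complex I list has medians of -0.98 and -0.85, and the 9 ND and ATP genes have -0.80 and -0.26.

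Genes that copy, read and process mitochondrial DNA and RNA were described in the same way, and no gene of these lists passed either edgeR test at an adjusted p of 0.05. The 15 complex I assembly factors had medians of -0.29 and -0.44 after transplantation, and 0.08 and -0.23 between the genotypes in untransplanted and transplanted kidneys. The 15 genes of mitochondrial DNA copying and transcription had medians of -0.21 and -0.13 after transplantation. TFAM, which packages mitochondrial DNA and starts its transcription, had 191 and 301 counts in CD39/CD55, against 371 and 321 for CD39/CD46/CD55/TBM. The mitochondrial RNA polymerase gene POLRMT had 142 and 99, and 56 and 58. The 17 genes of mitochondrial RNA processing and decay had medians of -0.35 and -0.44. Among them LRPPRC, which stabilises mitochondrial messenger RNAs, had 959 and 556, and 659 and 584 counts. These 3 genes were named after their values were seen.

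The 8 regulators of mitochondrial biogenesis had medians of 0.26 after transplantation in CD39/CD55 and 0.86 for CD39/CD46/CD55/TBM, with 1 and 2 called higher and none lower, against 13.2% and 15.9% of all genes higher. NRF1, a transcription factor of nuclear respiratory genes, had 224 and 403 counts in CD39/CD55, against 306 and 613 for CD39/CD46/CD55/TBM. ESRRA had 2791 and 2781, and 2053 and 1226. The coactivator gene PPARGC1A, named after its values were seen, had 1958 and 1863, and 2786 and 3691 counts. Between the genotypes the 8 regulators had medians of 0.41 in untransplanted and 0.75 in transplanted kidneys. Of these, 1 and 2 were called higher and none lower, against 8.15% and 11.0% of all genes higher.

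Cell type markers differed with the state of the kidney. The summed level of the 12 proximal tubule markers was 11995 scaled CPM in the untransplanted and 6246 in the transplanted kidney of CD39/CD55, and 13472 and 3187 for CD39/CD46/CD55/TBM. In edgeR's test of state, 9 of the 12 fell and none rose, against 2.71% and 1.24% of all genes, and SLC22A6 was at 0 in the transplanted kidney of CD39/CD46/CD55/TBM. This sum was lower by more for CD39/CD46/CD55/TBM, whereas the 9 mitochondrial genes were lower by more in CD39/CD55. Markers of the thick ascending limb and distal convoluted tubule summed to 3738 and 795 scaled CPM in CD39/CD55 and 1735 and 503 for CD39/CD46/CD55/TBM, and 2 of 8 fell. Most of that sum was UMOD, with 45070 and 6945 counts in CD39/CD55 and 15092 and 2214 for CD39/CD46/CD55/TBM. The median log2 ratio of the 8 was -0.52 in CD39/CD55 and -1.32 for CD39/CD46/CD55/TBM, and SLC12A1, a salt transporter of the thick ascending limb, had 1232 and 1134, and 1499 and 1550 counts. UMOD and SLC12A1 were named after their values were seen. Leukocyte markers summed to 66.4 and 6.06, and 61.8 and 10.04, and 4 of the 9 measured fell, with C1QC at 0 in both transplanted kidneys. The part of cell make-up in the mitochondrial values, and that of the shares of RN18S and the loci given with it, was not tested.

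Between the untransplanted genotypes, where the ND and ATP genes already stood apart, the proximal tubule markers had a median log2 ratio of 0.08, with 1 of 12 called higher and none lower, against 8.15% and 7.88% of all genes. The collecting duct markers had a median of 0.96 with 3 of 7 measured called higher. Their summed level was nevertheless alike, at 468 scaled CPM in CD39/CD55 and 469 for CD39/CD46/CD55/TBM. ATP6V1B1, with the most counts, had 5398 and 4707, and SLC4A1 had 567 and 295. SCNN1G had 106 and 354 counts, and the small counts were 11 and 34 for HSD11B2 and 14 and 27 for AQP2. These genes were named after their values were seen. The fibroblast and smooth muscle markers had a median of -0.69 with none of 6 called. The distal markers had a median of -0.15, the podocyte markers -0.01, the endothelial markers -0.14 and the leukocyte markers 0.17. The part of these differences in the mitochondrial values was not tested. Red cell markers were higher in the untransplanted kidney of CD39/CD46/CD55/TBM, at 233 scaled CPM against 60.4, and HBB had 2114 counts against 110. Whether residual blood bears on the mitochondrial values was not tested.

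Of 5734 nuclear genes with at least 200 counts in every library, 5 were nearest to the summed pattern of the 9 members over the 4 libraries, by the root mean square distance of centred log2 scaled counts. They were PTPRQ (0.22), COPG2 (0.26), IVNS1ABP (0.27), SLC26A7 (0.27) and PRSS23 (0.28). PTPRQ, a receptor-type phosphatase, had 655 and 344 counts in CD39/CD55, against 1426 and 976 for CD39/CD46/CD55/TBM. With 4 libraries, a near pattern is only a description.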

How the data were processed

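Per the labels' protocols, total RNA of 4 pig kidney samples was isolated by phenol and chloroform extraction, and libraries were prepared with a Quant-Seq kit from Lexogen. Whether it reads 3' ends or whole transcripts is not settled by the labels. The authors deposited whole-number counts of reads per gene, not normalized. Per the submitters' processing notes, Bowtie2, bedtools and build Sscrofa11.1 were used; the sources used here give no versions, parameters or strand use. Each file had 26965 lines, and 81 repeated symbols were summed.

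For CD39/CD55, untransplanted then transplanted, total counts were 14092905 and 11566041 (TMM factors 0.975 and 1.07), and for CD39/CD46/CD55/TBM 13226372 and 10346863 (0.957 and 1.001). A count of 0 allows up to 3 counts, or 0.218 to 0.290 scaled CPM. A gene was kept if any library had 10 or more counts of it. Pairs were compared by log2 ratios with a prior count of 0.5 and exact conditional binomial intervals (95%), which cover counting error only, as no molecular identifiers are mentioned. The difference of 2 ratios has a Wald interval. The 2 against 2 tests used edgeR 4.0.16 (quasi-likelihood, 2 residual degrees of freedom, Benjamini-Hochberg adjustment, threshold 0.05), where the SE is the absolute log2 fold change over the square root of F. Fits with a block or with a library left out had fewer residual degrees of freedom. DESeq2 1.42.0 and limma 3.58.1 were alternatives. The p-values measure only the spread between these libraries, which differ in the other factor.

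Scripts were tested on simulated data. RN18S, RN5-8S and 3 unplaced loci of very high count were treated as ribosomal RNA loci. The 3 were added after their counts were seen, because these were close to those of RN18S in untransplanted kidneys, and no sequence was checked. The ATP synthase genes and KIAA0391 were matched by older symbols. Members and gene lists were chosen with earlier results of these data known. All 13 mitochondrial genes are named. From each nuclear list, genes past a test are named (up to 4 a direction), otherwise those with the highest or lowest log2 ratio in a genotype among genes with at least 50 counts, of which the text gives some.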

Additional observations from a re-analysis of the deposited data

Results flagged for a closer look

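ND3 stood lower in the transplanted than in the untransplanted kidney of CD39/CD55 (log2 ratio -0.80) and higher in that of CD39/CD46/CD55/TBM (0.36), a difference of 1.16 on the log2 scale. The sum of the 9 members also had a difference of 1.16. ND4 was lower in CD39/CD46/CD55/TBM than in CD39/CD55 between untransplanted kidneys (-0.42) and higher between transplanted kidneys (1.57), a difference of 1.99. COX3, a complex IV subunit gene beside ND3 on the mitochondrial DNA, showed the same pattern (-0.48 and 1.05, a difference of 1.53). These 3 were picked out because the single library pairs went opposite ways in the 2 groups with counting intervals that exclude 0. With 1 library per group the differences were not tested.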

How the results depend on the processing

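Between the genotypes in untransplanted kidneys, no call or direction of the 9 members changed under another scaling, filter, fold or prior count. A fold of at least 1.5 in place of 2 called 2970 genes higher and 3068 lower in untransplanted genotypes, 3577 and 3663 in transplanted genotypes, 3990 and 4110 after transplantation in CD39/CD55, 4355 and 4554 for CD39/CD46/CD55/TBM, and 3296 and 3450 for the difference of changes, where 4 members were then higher. Scaling by total count left 2 members called lower after transplantation in CD39/CD55 and 0 for CD39/CD46/CD55/TBM. It turned ND2 (0.036) and ATP8 (0.014) for CD39/CD55 and the ND2 difference (-0.053). Without a filter, the ND2 difference was -0.022 and ATP8 for CD39/CD46/CD55/TBM -0.023.

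For state, the block on genotype gave 1124 genes that rose and 1681 that fell, DESeq2's Wald test 413 and 860, and edgeR without a filter 543 and 1035. For genotype, DESeq2's Wald test called 12 higher and 5 lower, with 4 members higher, and the fit with state as a block 133 and 171, with 4 members higher. Leaving out each library in turn gave 186 to 1051 genes higher and 392 to 1349 lower for state, with 0 to 1 members higher and 0 to 3 lower, and 0 to 14 higher and 0 to 4 lower for genotype, with 0 to 4 members higher. The counts for state went past 1.5 times only without the transplanted CD39/CD55 library. In these fits 1 side has a single library, which is assumed to vary like the others. Each such fit compares genotypes as well as states.

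The log2 fold changes of state over these fits ran from -2.63 to 1.33 for ND1, -2.69 to 2.51 for ND2, -1.63 to 0.96 for ND3, -1.15 to 0.62 for ND5, -3.19 to 0.80 for ND6, -3.17 to 3.08 for ATP8 and -1.34 to 0.0047 for CYTB. Those of genotype ran from -0.54 to 1.70 for ND4, -0.029 to 0.99 for COX1 and -0.73 to 1.35 for COX3. For state, ND3 was -0.21 in limma voom and -0.22 with the block, and ATP8 -0.029, -0.040 and, without a filter, -0.030. For genotype, COX3 was 0.29 in limma voom and 0.28 with the block. The cause of these changes was not tested.

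Leaving the loci treated as ribosomal RNA out of the total raised the summed shares of the 9 members to 6.63% and 3.26% in CD39/CD55 and 11.2% and 11.0% for CD39/CD46/CD55/TBM, untransplanted first. With the sum of the 9 members as the denominator, the log2 share ratio of ND3 for the difference of changes was -0.0033 and that of ND4 after transplantation for CD39/CD46/CD55/TBM -0.059. No paired analysis was possible because each group has 1 library and the labels carry no replicate numbers that tie libraries to animals. The fits with a block group libraries by the other factor of the design. Depth does not limit the members, whose lowest count was 663.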

Other observations

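The long noncoding RNA gene LOC102163816, chosen after its counts were seen, took 0.213% of counts in the untransplanted and 0.860% in the transplanted CD39/CD55 kidney, and 1.25% and 4.44% for CD39/CD46/CD55/TBM. It was higher in both CD39/CD46/CD55/TBM libraries than in both CD39/CD55 libraries, as were ND1, ND2, ND3, ND5, ND6 and ATP8. On scaled counts this held for 15.3% of all genes. In each genotype LOC102163816 was also higher after transplantation. As a share of counts ATP8 was higher for CD39/CD46/CD55/TBM (0.0866% and 0.0931%). In CD39/CD55 its shares were alike (0.00568% and 0.00573%), with overlapping counting intervals. ND2 had 0.164% and 0.168% in CD39/CD55, also with overlapping intervals, and 1.78% and 1.76% for CD39/CD46/CD55/TBM. On scaled counts, only ND3 and ATP8 of the 9 had a log2 ratio above 0 after transplantation, both for CD39/CD46/CD55/TBM.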
